A study of Homo sapiens with 4 samples.

Results

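The COMMD genes, COMMD1 to COMMD10, were examined in 2 lists of RNA polymerase II (Pol II) peaks from SK-OV-3, an established cell line of human ovarian cancer. The members were the protein-coding genes that carry these names in GENCODE release 44, which gave 10 of the 20033 protein-coding genes on the primary chromosomes (the autosomes, X and Y). The cells carried a stably expressed hairpin RNA, either against RRN3, which recruits RNA polymerase I to the ribosomal genes (shRRN3), or against the bacterial gene LacZ as control (shLacZ). Pol II was precipitated with its bound DNA using a commercial antibody (Active Motif), the DNA was sequenced (ChIP-seq), and enriched stretches were listed as peaks. The question was how silencing of RRN3 bears on the Pol II transcription process, and for this family where Pol II peaks lay at the gene starts and past the gene ends.

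Each hairpin had 1 Pol II library with a peak list and 1 input library, and the inputs were not analysed here. The lists differed in length, with 4014 peaks for shLacZ against 14363 for shRRN3, of which 3920 and 14322 lay on the primary chromosomes. The peak lists hold no read counts, so the depth behind them is unknown from these files, and without replicates no spread and no p-value could be given. A gene without a peak was not listed above the threshold of the peak caller, which does not show that Pol II was absent from it. The labels do not give which hairpin sequence against RRN3 was used, or whether the cells were a clone. Of 5 genes typical of this epithelial line, none had a peak in the gene or within 2 kb of it in shLacZ. The share over all protein-coding genes was 13.4%. In shRRN3, KRT7, KRT8, KRT18 and EPCAM, 4 of the 5, had such a peak, beside 36.9% of all genes. The fifth, ERBB2, had none in either list, and neither did any of 3 genes of other cell types (PTPRC, ALB and CD3E). KRT8 and KRT18 overlap, and their highest start peaks had the same score in shRRN3, 120.86, so they do not count as separate markers. The peak lists therefore gave no check of the cell type in shLacZ and little check of it in shRRN3.

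COMMD proteins share a conserved C-terminal COMM domain, through which they bind each other. They form a ring that assembles with CCDC22 and CCDC93 into the CCC complex, which works with the Retriever complex and the actin-regulating WASH complex to return membrane proteins from endosomes to the cell surface. COMMD1, the best studied member, is known for its part in copper homeostasis and for restraining NF-kB signalling.

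The sequences just before the member starts are shown because the peaks described here lay on them or failed to be listed over them. They are RefSeq promoter sequence (GRCh38.p14), 5′ to 3′ on the strand of the gene, and capitals mark the motif letters named in the next paragraph, on either strand. Each stretch begins at most 100 bases before the RefSeq start and ends at most 30 bases after it, some earlier. The motifs were searched over the longer promoter. Some matches named below, such as CCGGAA in COMMD4 and TATAAA in COMMD10, therefore lie outside the printed stretch. Of the 10 members, 9 matched an entry, all but COMMD5. COMMD1 and COMMD6 appear at 2 starts each, that of the canonical transcript (the representative transcript of the annotation) and that of the whole gene span, where the promoter lies between back-to-back genes.
COMMD3, chr10:22316288-22316415, plus strand: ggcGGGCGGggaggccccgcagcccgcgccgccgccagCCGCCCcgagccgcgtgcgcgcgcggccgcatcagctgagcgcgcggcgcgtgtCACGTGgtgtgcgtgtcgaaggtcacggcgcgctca
COMMD1, canonical start, chr2:61905574-61905676, plus strand: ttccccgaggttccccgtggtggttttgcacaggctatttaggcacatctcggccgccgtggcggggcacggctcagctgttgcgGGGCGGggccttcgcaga
COMMD1, gene-span start, chr2:61888642-61888754, plus strand: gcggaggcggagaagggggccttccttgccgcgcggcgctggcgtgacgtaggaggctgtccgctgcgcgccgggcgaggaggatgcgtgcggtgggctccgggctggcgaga
COMMD6, canonical start, chr13:75537815-75537941, minus strand: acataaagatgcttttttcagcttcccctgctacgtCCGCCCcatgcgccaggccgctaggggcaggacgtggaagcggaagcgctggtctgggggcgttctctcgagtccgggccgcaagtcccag
COMMD6, gene-span start, chr13:75549410-75549512, minus strand: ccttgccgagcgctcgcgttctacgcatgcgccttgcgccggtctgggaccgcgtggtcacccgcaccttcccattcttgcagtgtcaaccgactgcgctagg
COMMD10, chr5:116084925-116085045, plus strand: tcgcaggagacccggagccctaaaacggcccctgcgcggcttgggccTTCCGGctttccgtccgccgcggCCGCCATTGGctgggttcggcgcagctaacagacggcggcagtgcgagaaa
COMMD2, chr3:149752466-149752589, minus strand: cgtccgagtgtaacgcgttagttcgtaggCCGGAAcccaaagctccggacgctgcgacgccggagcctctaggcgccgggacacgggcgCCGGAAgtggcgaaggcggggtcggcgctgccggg
COMMD4, chr15:75335963-75336049, plus strand: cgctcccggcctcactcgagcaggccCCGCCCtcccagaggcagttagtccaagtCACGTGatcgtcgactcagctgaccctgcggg
COMMD7, chr20:32743438-32743567, minus strand: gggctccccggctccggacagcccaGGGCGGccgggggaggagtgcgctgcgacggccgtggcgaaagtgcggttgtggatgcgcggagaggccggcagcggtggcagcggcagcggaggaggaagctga
COMMD8, chr4:47463673-47463802, minus strand: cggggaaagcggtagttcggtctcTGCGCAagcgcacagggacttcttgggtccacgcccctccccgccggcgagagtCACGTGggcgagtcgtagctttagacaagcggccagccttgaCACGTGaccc
COMMD9, chr11:36289420-36289524, minus strand: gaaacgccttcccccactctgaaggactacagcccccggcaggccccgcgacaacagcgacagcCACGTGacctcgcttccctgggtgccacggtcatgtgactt

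The member promoters covered a wide range of base composition. Over the RefSeq promoter, 250 bases before to 50 bases after the start, the GC share at canonical starts ran from 49.0% in COMMD6 to 77% in COMMD3, beside a median of 62.3% over 21613 protein-coding promoters. The COMMD3 promoter held 53 CpG dinucleotides, 1.2 times the number its base composition gives, which placed it at the 99.3rd percentile of all promoters for that ratio. The GC box letters GGGCGG occurred in 7 of the 9 canonical promoters, against 56.8% of all promoters, and the ETS core CCGGAA occurred in 3 (COMMD2, COMMD4 and COMMD10), against 21.3%. The E-box CACGTG occurred in 4 of the 9, against 8.35% of all promoters. It lay 8 bases before the start in COMMD3, 45 in COMMD4, 22 in COMMD8 and 36 in COMMD9. COMMD3 and COMMD4 had start peaks, described next, and COMMD8 and COMMD9 had none. The letters TATAAA occurred in COMMD10 alone among the members (9.45% of all promoters), and so did TGCGCA, part of the NRF1 site, in COMMD8 (9.91%). At canonical starts CCAAT occurred in COMMD9 and COMMD10 (34.9%) and the YY1 core ATGGCGG in COMMD1 and COMMD10 (7.07%). COMMD6 had a CCAAT match at its gene-span start, 152 bases before it. In COMMD10 a CCAAT match and a YY1 match share bases. Both strands were searched, and a match is a description of letters, not of a bound site.

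Pol II peaks were listed at the starts of 4 members in shLacZ and of 6 members in shRRN3, with the peak midpoint within 1 kb of the start. The 4 in shLacZ were COMMD1, COMMD3, COMMD6 and COMMD10, or 40% of the family (95% Clopper-Pearson interval 12.2% to 73.8%), beside 7.56% of all protein-coding genes. The 6 in shRRN3 were the same genes with COMMD2 and COMMD4, or 60% (26.2% to 87.8%), beside 23.7% of all genes. The intervals cover counting error only. With the shRRN3 list reduced by score to the length of the shLacZ list, the shRRN3 count was 3, beside the 4 of shLacZ. The 3 were COMMD1, COMMD4 and COMMD6. With peaks of a score of at least 66.05 the counts were 1 in shLacZ (COMMD6) and 5 in shRRN3. That minimum was set from shLacZ and lies below the shRRN3 median of 74.65. It therefore removed a smaller part of the shRRN3 list, and these 2 counts cannot be compared. No share over all genes is given for the reduced list or for this minimum, so these counts have no background beside them. A start peak was listed in both lists for 4 members (6.41% of all genes) and in shRRN3 alone for 2 (17.3%). It was listed in shLacZ alone for 0 (1.15%) and in neither list for 4, and most of all genes also had none. Counting any peak in the gene or within 2 kb of it gave the same 4 and 6 members, beside 13.4% and 36.9% of all genes.

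**Figure D1:**
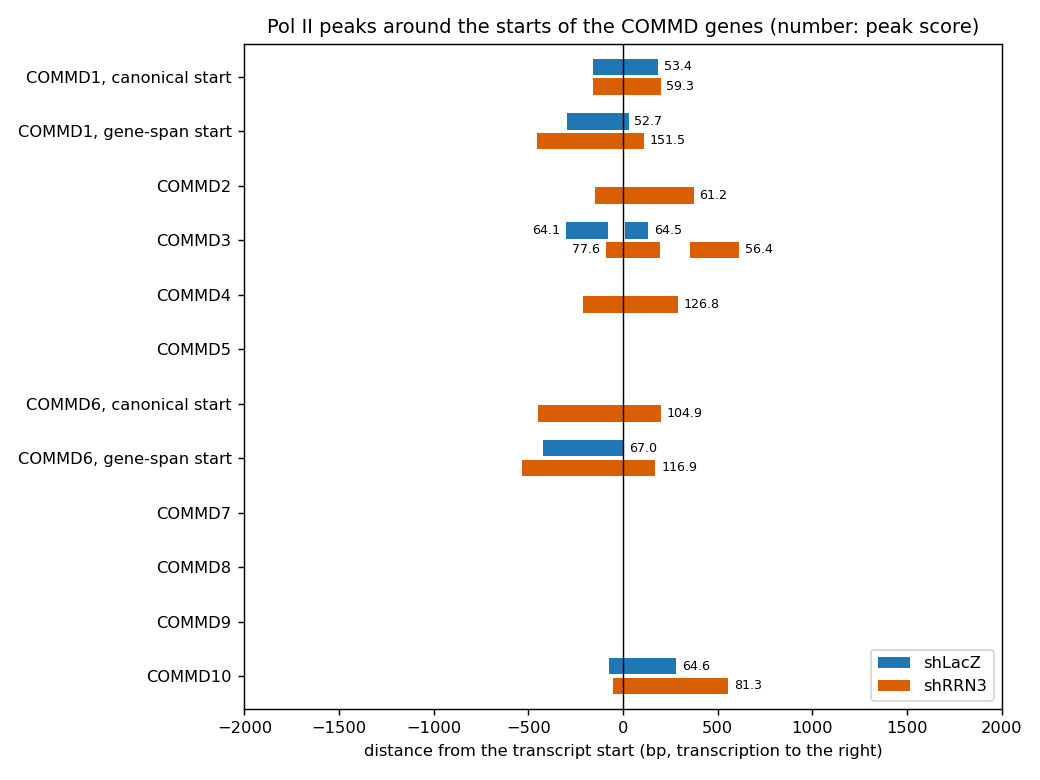
Pol II peaks around the annotated starts of the COMMD genes, as bars from peak start to peak end against the distance from the start in bp, with the deposited peak score beside each bar, shLacZ in blue and shRRN3 in orange. COMMD3 had 2 peaks near its start in each list, COMMD2 and COMMD4 had a peak in shRRN3 only, and COMMD5, COMMD7, COMMD8 and COMMD9 had no bar in either list.

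**Figure D2:**
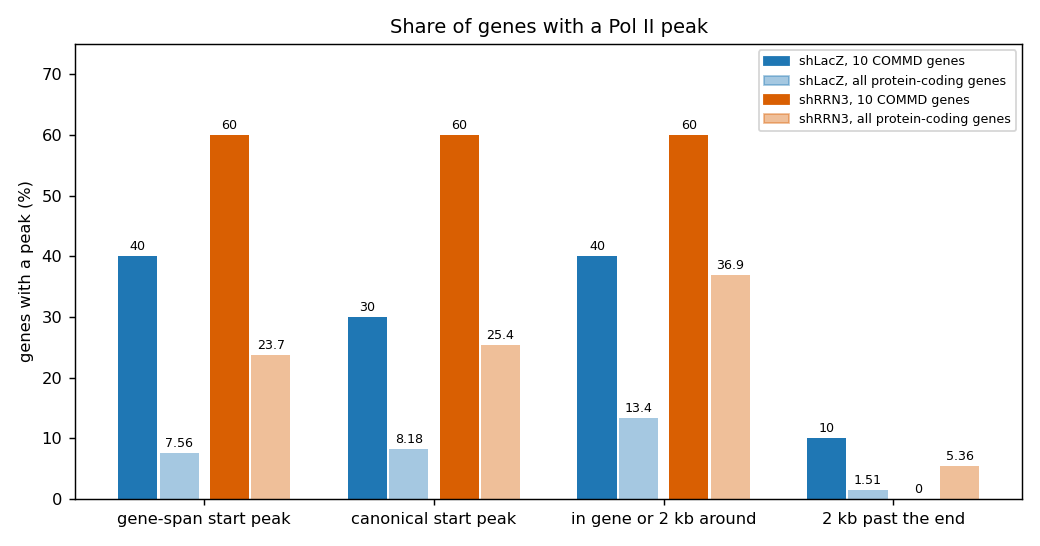
Share of genes with a Pol II peak in percent, at the gene-span start, at the canonical start, in the gene or 2 kb around it and in the 2 kb past the end, as bars for the 10 COMMD genes (dark) and all protein-coding genes (light) in shLacZ (blue) and shRRN3 (orange), with no error bars. At gene-span starts the bars of the family stood at 40% and 60%, beside 7.56% and 23.7% of all genes, and past the end at 10% and 0%, beside 1.51% and 5.36%.

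The deposited score of a peak depends on depth, so scores were not compared between lists, and the peaks of the family are given with their percentile among the peaks of their own list on the primary chromosomes. In shLacZ the 7 peaks of the family scored from 52.7 to 131, with 5 below the median of 65.58 over the primary chromosomes. In shRRN3 the 10 peaks scored from 50.4 to 152, with 4 below the corresponding median of 74.65. An overlapping shRRN3 peak existed for 6 of the 7 shLacZ peaks, beside 66.2% of the whole shLacZ list. The exception was the peak past the end of COMMD3. An overlapping shLacZ peak existed for 5 of the 10 shRRN3 peaks, beside 16.9% of the whole shRRN3 list.

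COMMD3, which forms a heterodimer with COMMD8, is the shortest gene of the family and was the only member with separate peaks before and after its start in shLacZ. It lies on the plus strand at chr10:22316386-22320306 (hg38), with 8 exons over 3.92 kb. In shLacZ a peak at chr10:22316088-22316307 scored 64.14 (46.8th percentile) and ended before the start, and a peak at chr10:22316399-22316522 scored 64.55 (47.5th percentile) and had its midpoint in exon 1. In shRRN3 a peak at chr10:22316299-22316583 scored 77.56, at the 53.7th percentile, and overlapped both of them. It covered the whole of the second shLacZ peak, 124 bp, and 9 bp of the first. A further shRRN3 peak at chr10:22316744-22317002 in intron 1 scored 56.38 (19.8th percentile) and had no overlapping shLacZ peak.

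COMMD1 had peaks at 2 separate starts in both lists. The gene runs over 259 kb on the plus strand at chr2:61888724-62147247, and its canonical transcript starts 16950 bp inside that span. At the canonical start the peaks of the lists shared their first base, chr2:61905516-61905860 in shLacZ with a score of 53.4 (17.6th percentile) and chr2:61905516-61905872 in shRRN3 with 59.3 (27.1st). Their midpoints fell 14 and 20 bp past that start, in exon 1. The gene-span start lies 53 bp from the start of CCT4, which encodes a subunit of the cytosolic chaperonin TRiC and is read in the opposite direction. There the peak scored 52.7 in shLacZ (14.1st percentile) and 152 in shRRN3 (87.8th). That peak counted for CCT4 in the same way, and which gene it belongs to cannot be told apart.

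COMMD6, the member with the shortest protein, also had 2 starts, and its lists differed at 1 of them. The gene lies on the minus strand at chr13:75525214-75549439, and its canonical transcript starts 11598 bp inside the span. At the canonical start a peak at chr13:75537640-75538292 was listed in shRRN3, with a score of 105 (73.7th percentile) and its midpoint 125 bp before the start. No shLacZ peak was listed there. At the gene-span start, 44 bp from the start of UCHL3, a ubiquitin hydrolase gene read in the opposite direction, the peak scored 67.0 in shLacZ (53.2nd percentile) and 117 in shRRN3 (79.0th). The shLacZ start peak of COMMD6 was therefore also that of UCHL3, and with canonical starts the shLacZ count was 3 members, beside 8.18% of all genes. The shRRN3 count with canonical starts was 6, beside 25.4%.

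COMMD10 had a start peak in both lists, in a gene of 328 kb on the plus strand at chr5:116085016-116412762. In shLacZ the peak at chr5:116084954-116085307 scored 64.6 (47.9th percentile), and in shRRN3 the peak at chr5:116084972-116085580 scored 81.3 (57.2nd). They shared 336 bp. A further shRRN3 peak at chr5:116134279-116134523 in intron 5 scored 50.4 (1.23rd percentile), close to the lowest score of that list (50), and its GC share was 28.6%, the lowest of the peaks of the family.

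COMMD2 and COMMD4, further subunits of the COMMD ring, had a start peak in shRRN3 only. COMMD4 (chr15:75336020-75343224, plus strand) had a peak at chr15:75335850-75336354 with a score of 127 (82.3rd percentile), and the nearest shLacZ midpoint lay 32.3 kb from the start. COMMD2 (chr3:149738472-149752495, minus strand) had a peak at chr3:149752117-149752638 with a score of 61.2 (30.7th percentile), and the nearest shLacZ midpoint lay 137 kb away. No other peak was listed within 2 kb of either gene.

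Against the other start peaks of each list, the members with a start peak stood below the median in shLacZ, with only COMMD1 far below it. In shRRN3 they stood on both sides of the median. Among 1324 start peaks of shLacZ, with a median score of 69.98, the highest start peak of COMMD1 stood at the 8.53rd percentile, COMMD3 at the 38.8th, COMMD10 at the 39.2nd and COMMD6 at the 45.5th. Among 4371 start peaks of shRRN3, with a median of 86.58, COMMD1 (82.5th), COMMD4 (74.9th) and COMMD6 (70.7th) stood above it and COMMD10 (45.5th), COMMD3 (42.3rd) and COMMD2 (21.4th) below it. For COMMD1 and COMMD6 these were the peaks shared with CCT4 and UCHL3. Of all genes, 1823 had, like COMMD1 and COMMD6, an opposite-strand protein-coding start within 2 kb upstream. A start peak was listed for 13.6% of these in shLacZ and 46.9% in shRRN3, and for 6.95% and 21.4% of the 18210 other genes.

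**Figure D3:**
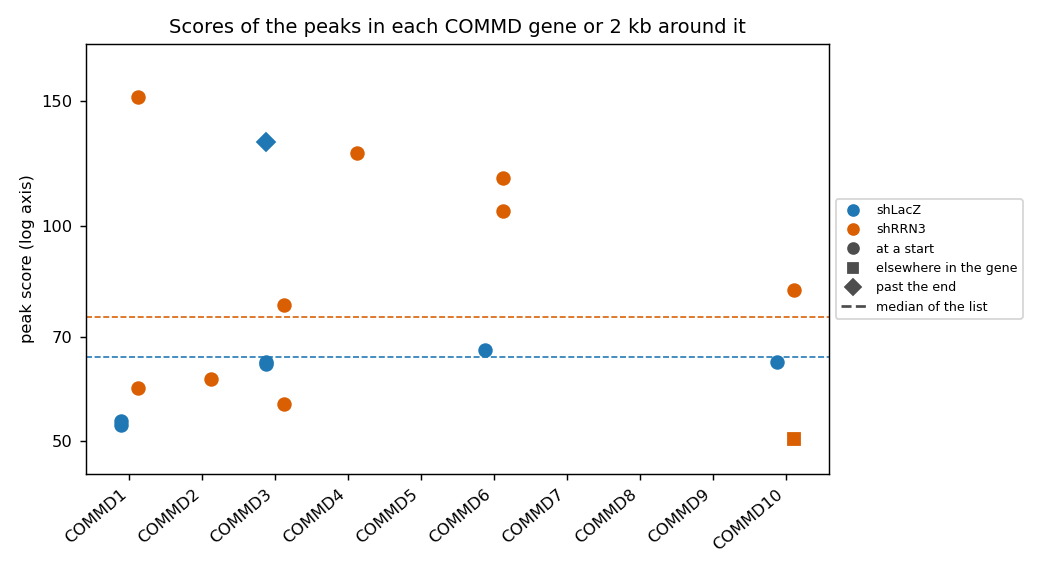
Deposited score (log axis) of each peak in a COMMD gene or 2 kb around it, shLacZ in blue and shRRN3 in orange, with circles for peaks at a start, a square for a peak elsewhere in the gene, a diamond for the peak past the end and dashed lines for the median score of each list. The diamond of COMMD3 at 131.29 was the highest shLacZ point, and the other 6 shLacZ points lay between 52.66 and 67.0.

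No peak was listed in or within 2 kb of COMMD5, COMMD7, COMMD8 and COMMD9 in either list. COMMD9 (chr11:36269284-36289449), known for its part in the recycling of Notch receptors, had its nearest peak 65.2 kb away in shLacZ and 23.1 kb away in shRRN3. COMMD8 (chr4:47450787-47463702), a reported partner of COMMD3, had its nearest shLacZ peak 1367 kb away and its nearest shRRN3 peak 102 kb away. COMMD7 (chr20:32702699-32743467), known to bind NF-kB subunits, had 963 kb and 343 kb, although the GC share of its promoter, 74.7%, was the second highest of the members measured. COMMD5 (chr8:144841042-144853736), also known as the hypertension-related calcium-regulated gene HCaRG, was the closest to a peak, at 13.3 kb in shLacZ and 4.38 kb in shRRN3. All 4 of these genes lie on the minus strand, but so do COMMD2 and COMMD6, which had start peaks.

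Past the gene ends, COMMD3 was the only member with a peak in the 2 kb after the end, and it had that peak in shLacZ. This was 1 of 10 members in shLacZ, beside 1.51% of all genes, and 0 of 10 in shRRN3, beside 5.36%. Counted from the ends of canonical transcripts, the members were again 1 (1.52% of all genes) and 0 (5.39%). A peak past the end in shLacZ alone was listed for 1 member and 0.255% of all genes, and in shRRN3 alone for 0 members and 4.1% of all genes. The next gene after COMMD3 is BMI1, on the same strand, which encodes a subunit of the Polycomb repressive complex PRC1, and 792 bp separate the end of COMMD3 from the start of BMI1. An annotated readthrough gene, COMMD3-BMI1, spans both. The peak lay at chr10:22320737-22321081, was 345 bp wide and scored 131.29, at the 88.4th percentile of the shLacZ list and the highest of the 7 shLacZ peaks of the family. Its first base came 430 bases after the end of COMMD3 and its last base 17 bases before BMI1. The midpoint fell 603 bp past the end of COMMD3 and 190 bp before the start of BMI1, so the peak counted both as past the end of COMMD3 and as a start peak of BMI1, and the lists cannot tell these apart.

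The nearest shRRN3 peak to it was 3734 bp away, in intron 1 of COMMD3, and BMI1 had no start peak in shRRN3. The only shRRN3 peak in BMI1 lay in intron 6 at chr10:22328020-22328238 and scored 54.55 (15.4th percentile). The gap peak had a GC share of 80.0%, above the other peaks of the family, and held 54 CpG dinucleotides. Of its bases, 233 lay in the RefSeq promoter of BMI1. Its middle 240 bases are shown (hg38), with CpG dinucleotides in capitals.
COMMD3 to BMI1 gap peak, middle, chr10:22320789-22321028, plus strand: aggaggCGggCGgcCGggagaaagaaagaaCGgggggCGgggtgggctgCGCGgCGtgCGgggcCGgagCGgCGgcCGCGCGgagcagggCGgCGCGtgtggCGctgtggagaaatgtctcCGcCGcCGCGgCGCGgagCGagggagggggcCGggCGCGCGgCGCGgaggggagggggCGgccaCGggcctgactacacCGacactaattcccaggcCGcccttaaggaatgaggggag

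**Figure D4:**
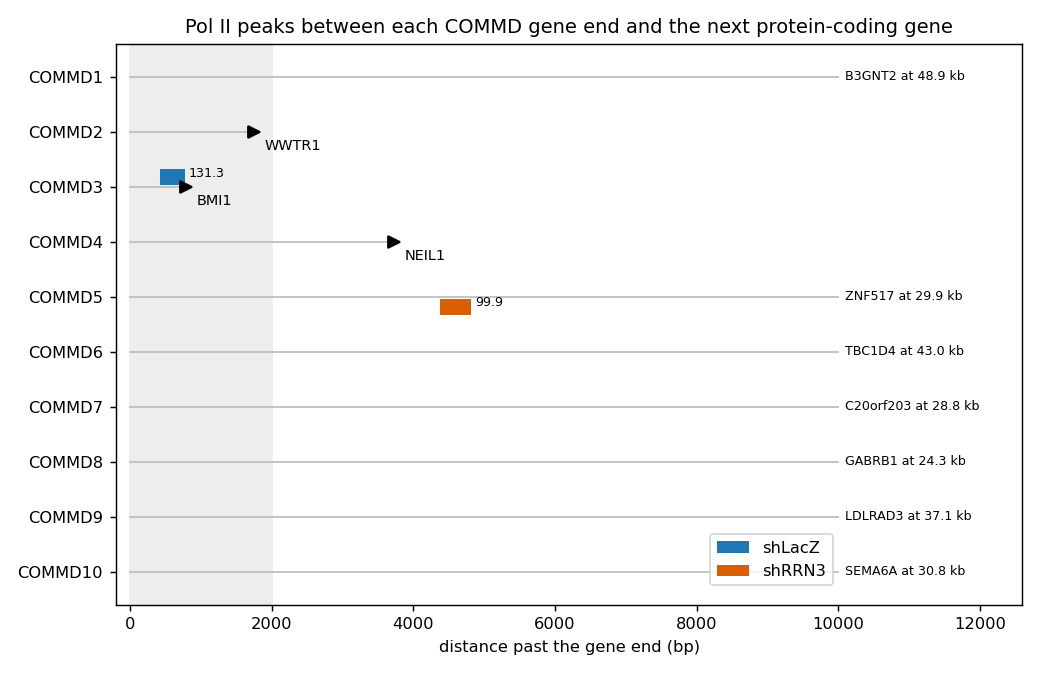
Pol II peaks past the end of each COMMD gene, as bars (shLacZ blue, shRRN3 orange, score beside them) against the distance past the end in bp, with arrowheads at the start of a near next gene, the first 2 kb shaded and lines toward more distant genes cut short. The shLacZ peak past COMMD3 lay just before BMI1, and the other bar in view was the shRRN3 peak 4.6 kb past COMMD5.

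The other gene ends showed no peak in either list within 2 kb. COMMD2 ends 1.76 kb before WWTR1, which encodes the Hippo pathway coactivator TAZ, on the same strand, and neither the gap nor the start of WWTR1 had a peak. COMMD4 ends 3.73 kb before NEIL1, a DNA glycosylase gene of base excision repair on the same strand, and neither that gap nor the start of NEIL1 had a peak. For the remaining 7 members the next gene was 24.3 kb to 48.9 kb away. These were B3GNT2 after COMMD1, ZNF517 after COMMD5, TBC1D4 after COMMD6, C20orf203 after COMMD7, GABRB1 after COMMD8, LDLRAD3 after COMMD9 and SEMA6A after COMMD10. Of these next genes, B3GNT2 alone had a start peak, in shRRN3 with a score of 50.97. Only COMMD5 among the 7 had peaks before the next gene, 13.6 kb past its end in shLacZ (51.98) and 13.8 kb and 4.6 kb past it in shRRN3 (54.29 and 99.94). The nearest of these lay inside ZNF7, which overlaps COMMD5 and was named after its values were seen, 8926 bp from the start of ZNF7.

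The gap between COMMD3 and BMI1 was then set among the 1101 pairs of neighbouring protein-coding genes on the same strand that lie at most 2 kb apart, of which COMMD2 and WWTR1 are also a pair. A shLacZ peak reached into the gap in 86 pairs (7.81%) and a shRRN3 peak in 264 pairs (24%). In all of the 86, that gap peak or another shLacZ peak lay at the start of the downstream gene. A shLacZ gap peak was therefore never listed apart from a start peak of the next gene. In 11 pairs a shLacZ gap peak was not overlapped by any shRRN3 peak, which is 12.8% of the 86 (95% Clopper-Pearson interval 6.56% to 21.7%) and 0.999% of all pairs. The peak between COMMD3 and BMI1 scored highest of these 11, at 131.29. The next were ZMYM6 and TMEM35B with 70.91, IQSEC2 and KDM5C, a histone demethylase gene, with 65.15, C8orf58 and CCAR2 with 63.63, and ZDHHC4 and INTS15 with 62.53. The median of the 11 was 62.36. In 11 other pairs the highest shLacZ gap peak scored at least 131.29, and none of these 11 had a shLacZ gap peak without an overlapping shRRN3 peak. In none of the 11 pairs with an unmatched shLacZ peak did the downstream gene have a start peak in shRRN3. That partly follows from how these pairs were picked, as a shRRN3 peak over the gap peak would mostly lie at that start too. In the longer shRRN3 list, 194 pairs had a gap peak that no shLacZ peak overlapped.

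**Figure D5:**
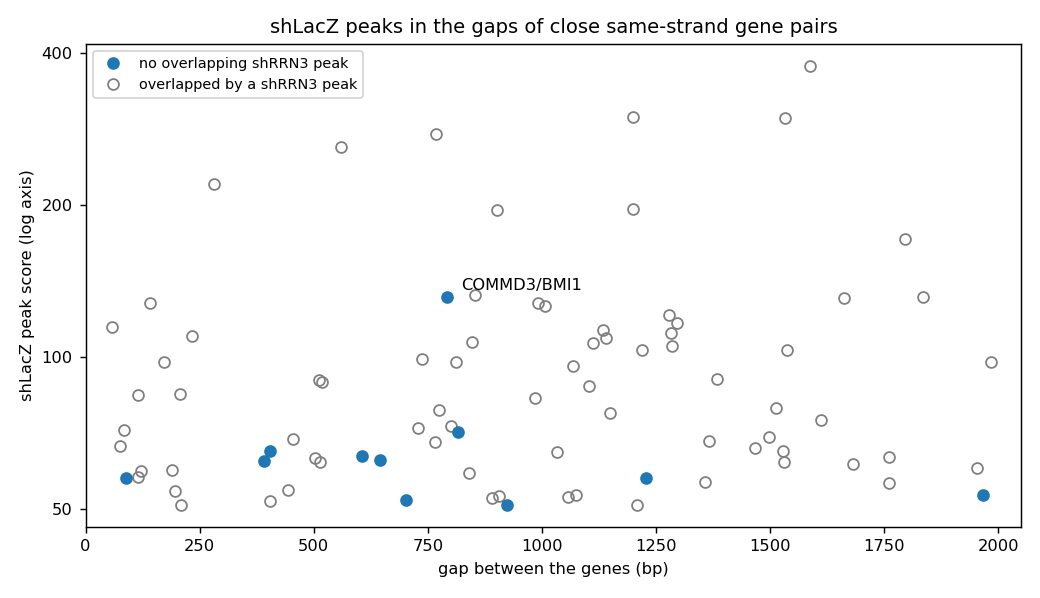
Score of shLacZ gap peaks (log axis) in close same-strand gene pairs against the gap between the genes in bp, with filled circles for pairs whose peak no shRRN3 peak overlaps and open circles for the others. COMMD3/BMI1 at 131.29 was the highest filled circle, and the next, ZMYM6/TMEM35B, stood at 70.91.

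Start peaks of the partner genes were listed as follows, beside the 4 and 6 of 10 members. The shares of partners and members were not tested against each other. Of 13 genes of the CCC, Retriever and WASH complexes and the cargo adaptor SNX17, 2 had a start peak in shLacZ (15.4%, beside 7.56% of all genes) and 6 in shRRN3 (46.2%, beside 23.7%). Their scores are given as deposited and are not comparable between the lists. VPS29, a Retriever subunit, scored 50.56 in shLacZ and 157.43 in shRRN3. WASHC4, a WASH subunit, scored 147.07 and 189.37. With a start peak in shRRN3 alone were the CCC subunit CCDC93 (54.4), the Retriever subunits VPS35L (58.82) and VPS26C (132.57), and SNX17 (76.09). The CCC scaffold CCDC22, DENND10 and the WASH genes WASHC1, WASHC2A, WASHC2C, WASHC3 and WASHC5 had a start peak in neither list. Most of all genes also had none. WASHC1, WASHC2A and WASHC2C have near-identical copies elsewhere in the genome, so the absence of a listed peak is uncertain for them. Past their ends, 0 of the 13 had a peak in shLacZ (1.51% of all genes) and 2 (VPS26C and SNX17) in shRRN3 (5.36%).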

How the data were processed

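Pol II ChIP-seq was carried out by the authors in shLacZ and shRRN3 SK-OV-3 cells with the ChIP-IT Express Kit, and sequenced on BGISEQ-500. The deposited files list coordinates, a name and a score per peak, 1 file per library. The score is the authors' own, as deposited, and the caller MACS is named within the peak names. Its version and threshold, the aligner, the handling of duplicate reads and the use of the input are not given in the sources used here. The build, hg38, comes from the submitters' processing notes. Scores ran from 50.03 in shLacZ and 50.0 in shRRN3 to 3100, depend on depth, and were used to rank peaks within a list.

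Genes were the protein-coding genes of GENCODE release 44, and coordinates were counted from 1. A start peak had its midpoint within 1 kb of the gene-span start. A peak past the end shared at least 1 bp with the 2 kb after the gene end. That window was not cut where the next gene lay closer, so it could reach into that gene. Lists overlapped at 1 bp or more. The text names all members, the next gene past each end, an opposite-strand gene starting within 2 kb upstream, partner genes with a start peak, and up to 5 close pairs by score. The members and lists were chosen with earlier results of these data known. The window code was tested on simulated lists. Python 3.11.15, numpy 2.4.6, scipy 1.17.1 and matplotlib 3.10.9 were used. Alternatives were other windows and flanks, a stricter score, a shortened shRRN3 list, other starts and ends, and other gap limits. The inputs were left out.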

Additional observations from a re-analysis of the deposited data

How the results depend on the processing

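Of 39 alternative values for 9 counts, 32 were within 1.5 times the count reported and 7 were not. Keeping only peaks at or above 66.05, the median score of the shLacZ list with its peaks outside the primary chromosomes included, left 2 members with a shLacZ peak in or around the gene (COMMD3 and COMMD6) and 1 member with a shLacZ start peak (COMMD6). It gave 3 close gene pairs with a shLacZ gap peak that no shRRN3 peak overlaps, of which 2 were among the 11, COMMD3/BMI1 and ZMYM6/TMEM35B. The other, SIN3A/MAN2C1, entered because the shRRN3 peak that overlaps its gap peak fell below the minimum. Reducing the shRRN3 list to the length of the shLacZ list, by score, left 3 members with a shRRN3 peak in or around the gene and 3 with a shRRN3 start peak, COMMD1, COMMD4 and COMMD6 in each case. For the stricter score and the shortened list, no share over all genes is given. Leaving out peaks within 1 kb of the start of another gene left 0 members with a shLacZ peak past the end, since the COMMD3 peak also lies before BMI1. A window of 5 kb past the end gave 1 member in shRRN3 (COMMD5). COMMD3 and BMI1 stayed among the pairs in 4 of 4 alternative settings for the close pairs. None of these could have removed this pair, with its gap of 792 bp, score of 131.29 and nearest shRRN3 peak 3734 bp away. The 4 of 4 therefore lends the result no weight. The starts and ends of canonical transcripts were chosen after seeing the data. No paired analysis was possible because each hairpin had 1 library, and for the same reason no replicate could be left out. The depth behind the lists is unknown from these files, so a peak in a single list cannot be told apart from a difference in sequencing depth.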

Other observations

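Among the 1101 close same-strand pairs, the downstream gene had a shLacZ start peak in 99 pairs. In 16 of these no shRRN3 start peak was listed for it. Of all protein-coding genes, 1514 had a shLacZ start peak, and 230 of these had none in shRRN3, a similar share. COMMD3 and BMI1 were among the 16.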
